A study of Mus musculus with 7 samples.

Results

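The circadian clock genes described here are Per1, Per2, Per3, Cry1, Arntl, Clock, Dbp, Tef, Nr1d1 and Nr1d2. They were taken by their symbols, so the members are 10 of the 27998 genes in the count matrix. No measured value entered this rule, though earlier results of these data were known when the members were chosen. Single-cell RNA was measured in dissociated abdominal mammary glands, lymph nodes removed, of 3 young (3 to 4 months; Young A, B and C) and 4 aged (13 to 14 months; Aged A, B, C and D) mice. All were nulliparous females of a mixed FVB, 129 and C57BL/6J background, kept in alternating light and dark and taken at diestrus. One library was made per mouse. The hour at which each mouse was taken is not given in the sources used here. Clock genes follow the hour, so hour and mouse, and hour and age, cannot be told apart. Cell names of young mice write the barcode in 2 parts and those of aged mice in 1, so a difference in how the libraries were processed cannot be told apart from age either.

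The 7 mice gave 13684 cells with 1264 to 2865 cells and 6652599 to 16999625 unique molecular identifiers (UMIs, 1 per captured mRNA molecule) each. The 21 pairs of mice shared 1 to 10 cell barcodes. The deposited names of 13 cell types were used, and 35 of 38 defining markers were highest in the type they mark. The 3 others, Prlr, Pgr and Esr1, mark luminal hormone-sensing (HS) cells and were highest in the small HS-AV population, which carries markers of both luminal types. The 6 types with at least 10 cells in every mouse were compared. These are myoepithelial cells, HS cells and alveolar (AV) cells of the epithelium, and fibroblasts, vascular endothelial cells and pericytes of the stroma. Aged fibroblasts were few, with 15 cells in Aged C and 17 in Aged D.

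The mammalian clock is a feedback loop that runs in almost every cell. CLOCK and ARNTL (BMAL1) pair on E-boxes and activate the Per and Cry genes, whose proteins return to the nucleus and shut off the pair. The same pair drives Nr1d1 and Nr1d2, nuclear receptors (REV-ERBα and REV-ERBβ) that repress Arntl through ROR elements, and Dbp. DBP and TEF are related bZIP activators that act on D-boxes and carry the rhythm to other genes. In most tissues Arntl therefore peaks at about the opposite phase to Dbp and Nr1d1. Per1 is also switched on by glucocorticoids and by immediate-early signals.

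On GRCm38 the activators are Clock (chr5:76209868-76304792, minus strand) and Arntl (chr7:113207465-113314126, plus strand). The repressors of the main loop are Per1 (chr11:69095217-69109960, plus strand), Per2 (chr1:91415982-91459324, minus strand), Per3 (chr4:151003652-151044665, minus strand) and Cry1 (chr10:85131700-85185064, minus strand). The REV-ERB genes are Nr1d1 (chr11:98767932-98775333, minus strand) and Nr1d2 (chr14:18204054-18239127, minus strand). The bZIP genes are Dbp (chr7:45705088-45710203, plus strand) and Tef (chr15:81802421-81826863, plus strand). The end of Nr1d1 overlaps 1075 bases of Thra (chr11:98740638-98769006, plus strand) on the other strand, and use of strand in the counting is not given in the sources used here.

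Promoter windows of 250 bases before the start were searched in RefSeq sequence (GRCm38.p6) for 3 motifs on both strands. These are the E-box CACGTG, which is its own reverse complement, the D-box TTATGTAA (reverse complement TTACATAA) and the ROR element TAGGTCA (reverse complement TGACCTA); no match overlapped another. Windows were given for 9 of the 10 genes, all but Per2. E-boxes were found in 3 of the 9, Per1, Cry1 and Tef, against 6.86% of 27025 genes with a window. The Per1 start used by RefSeq lies inside the annotated gene body given above. Only Per3 of the 9 had a D-box, against 0.977% of genes, and it had 2. The ROR element was in 0 of the 9, against 2.55% of genes. Only the exact letters given, in the 250 bases before the start, were searched. Other spellings and sites after the start were not, so this count does not show that a gene lacks the element. For each of the 4 genes with a match, 1 window is printed 5′ to 3′ in the direction of its gene, to show the elements named above next to the genes they are known for, with matches in capitals.
Per1 (chr11:69098699-69098948, plus strand): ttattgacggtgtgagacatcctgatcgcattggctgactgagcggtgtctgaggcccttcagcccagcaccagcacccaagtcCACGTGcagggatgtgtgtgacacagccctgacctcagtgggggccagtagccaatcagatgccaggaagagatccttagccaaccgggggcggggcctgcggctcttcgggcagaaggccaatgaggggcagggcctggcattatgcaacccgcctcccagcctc
Cry1 (chr10:85185055-85185304, minus strand): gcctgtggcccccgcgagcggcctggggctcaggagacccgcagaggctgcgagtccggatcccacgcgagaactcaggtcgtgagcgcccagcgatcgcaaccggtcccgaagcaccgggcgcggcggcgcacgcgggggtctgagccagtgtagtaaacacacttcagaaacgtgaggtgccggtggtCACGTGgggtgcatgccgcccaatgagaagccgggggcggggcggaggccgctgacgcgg
Tef (chr15:81802423-81802672, plus strand): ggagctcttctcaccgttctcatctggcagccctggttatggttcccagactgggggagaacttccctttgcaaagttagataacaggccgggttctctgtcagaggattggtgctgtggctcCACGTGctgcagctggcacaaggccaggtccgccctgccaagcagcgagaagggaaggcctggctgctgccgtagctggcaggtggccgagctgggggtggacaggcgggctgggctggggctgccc
Per3 (chr4:151044666-151044915, minus strand): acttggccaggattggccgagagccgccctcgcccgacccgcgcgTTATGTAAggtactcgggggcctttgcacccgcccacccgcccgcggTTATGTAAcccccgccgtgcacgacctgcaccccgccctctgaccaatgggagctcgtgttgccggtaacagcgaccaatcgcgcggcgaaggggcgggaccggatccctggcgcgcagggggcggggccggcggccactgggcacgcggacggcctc
The Per1 E-box began 166 bases before the start, that of Cry1 60 and that of Tef 127. A further Tef start, whose window is not printed, held an E-box 138 bases before it. The D-boxes of Per3 began 205 and 158 bases before its start. A match is a run of letters, and binding was not measured here.

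Clock genes were sparse in these libraries. Over all cells they had from 662 UMIs (Per3) to 3186 (Nr1d1), and 4.48% to 18.6% of cells held at least 1. UMIs were therefore summed per mouse and cell type and given as counts per 1000000 UMIs of that sum (CPM). Levels are compared between cell types for each gene, not between genes.

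Among the activators, Clock was highest in HS cells (58.0 ± 22.2 CPM, SD, n = 7) and lowest in AV cells (13.8 ± 3.49), and HS cells were above AV cells in 7 of 7 mice. Clock in HS cells was 44.8, 41.4 and 25.5 CPM in Young A, B and C and 89.4, 65.7, 61.1 and 78.1 in Aged A, B, C and D. In AV cells it was 16.7, 8.99 and 17.4 CPM in the young and 16.8, 14.0, 13.6 and 9.35 in the aged mice. The ranges of these luminal types did not overlap. Arntl was highest in fibroblasts (17.2 ± 10.7 CPM) and lowest in HS cells (5.10 ± 2.36), and fibroblasts were above HS cells in 7 of 7 mice. The other types had 13.0 ± 6.17 CPM in myoepithelial cells, 8.87 ± 4.42 in AV cells, 7.30 ± 5.30 in vascular endothelial cells and 5.30 ± 6.21 in pericytes.

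Of the repressors, Per1 was highest in pericytes (65.0 ± 29.9 CPM) and AV cells (52.5 ± 22.1) and lowest in HS cells (20.5 ± 4.21). Fibroblasts had 40.0 ± 9.97 CPM, vascular endothelial cells 32.8 ± 12.9 and myoepithelial cells 21.2 ± 12.6. Per2 lay between 5.64 ± 3.52 CPM in vascular endothelial cells and 14.1 ± 6.75 in HS cells, with HS cells higher in 7 of 7 mice. Per3 ranged from 3.29 ± 1.46 CPM in myoepithelial cells to 11.7 ± 9.64 in fibroblasts, where the SD came close to the mean. Cry1, a second arm of the repressor complex, was highest in AV cells (28.7 ± 14.3 CPM) and myoepithelial cells (22.2 ± 11.4) and lowest in HS cells (5.31 ± 2.27). AV cells held more Cry1 than HS cells in 7 of 7 mice. Clock and Cry1 thus had opposite orders in the luminal pair, with Clock high and Cry1 low in HS cells.

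Of the REV-ERB genes, Nr1d1 ranged from 34.1 ± 5.37 CPM in HS cells to 62.1 ± 20.1 in pericytes, and Nr1d2 from 13.3 ± 5.17 CPM in myoepithelial cells to 35.01 ± 12.7 in fibroblasts. Of the output genes, Dbp spanned the widest range, from 2.37 ± 1.80 CPM in myoepithelial cells to 61.8 ± 42.8 in fibroblasts. Pericytes had 43.1 ± 25.7 CPM, vascular endothelial cells 33.0 ± 22.5, AV cells 23.6 ± 17.8 and HS cells 16.4 ± 7.27. At least 1 Dbp UMI was found in 16.7% of fibroblasts and 1.38% of myoepithelial cells, at median depths of 4414 and 4431 UMIs. With every cell thinned to 2000 UMIs these shares were 8.93% and 0.419%. What free RNA adds to such low shares was not tested. Myoepithelial Dbp was at 0 UMIs in Young B and Young C, which allows up to 14.8 and 9.74 CPM (counting error only). Tef ranged from 6.74 ± 3.34 CPM in AV cells to 18.0 ± 10.97 in pericytes.

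With 7 mice the test used could hardly part neighbours in these orders, and it does not show that they are alike. The smallest exact p is 0.016, and 1 pair at it cannot pass adjustment over 50 pairs. Of 50 pairs of neighbouring cell types, 0 passed an exact two-sided sign-flip test over 7 mice after adjustment (smallest adjusted p = 0.78), and 2 had an unadjusted exact p under 0.05. These were Dbp in HS above myoepithelial cells (log2 difference 1.50 ± 0.39, SD, in 7 of 7 mice, exact p = 0.0156) and Clock in myoepithelial above AV cells (0.76 ± 0.56, in 6 of 7 mice, exact p = 0.0312). Log2 values here and below were taken after adding 5 CPM, which understates differences of low genes.

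The 3 epithelial types were also set against the 3 stromal types within each mouse. Dbp was lower in the epithelium in 7 of 7 mice, with a log2 difference of -1.41 ± 0.69 (SD, n = 7, exact sign-flip p = 0.0156, adjusted p = 0.0781 over the 10 genes). Per2 was higher in the epithelium in 7 of 7 mice, by 0.57 ± 0.42 (exact p = 0.0156, adjusted p = 0.0781). The smallest p that 7 mice allow is 0.016, and no gene passed after adjustment. Being higher in the stroma in every mouse, as Dbp was, held for 21.1% of the 11888 genes compared, and being higher in the epithelium, as Per2 was, for 19.3%. The remaining 8 genes had mice on both sides. Per1 was lower in the epithelium in 6 of 7 mice (-0.54 ± 0.45), and so was Clock (-0.35 ± 0.35).

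**Figure D1:**
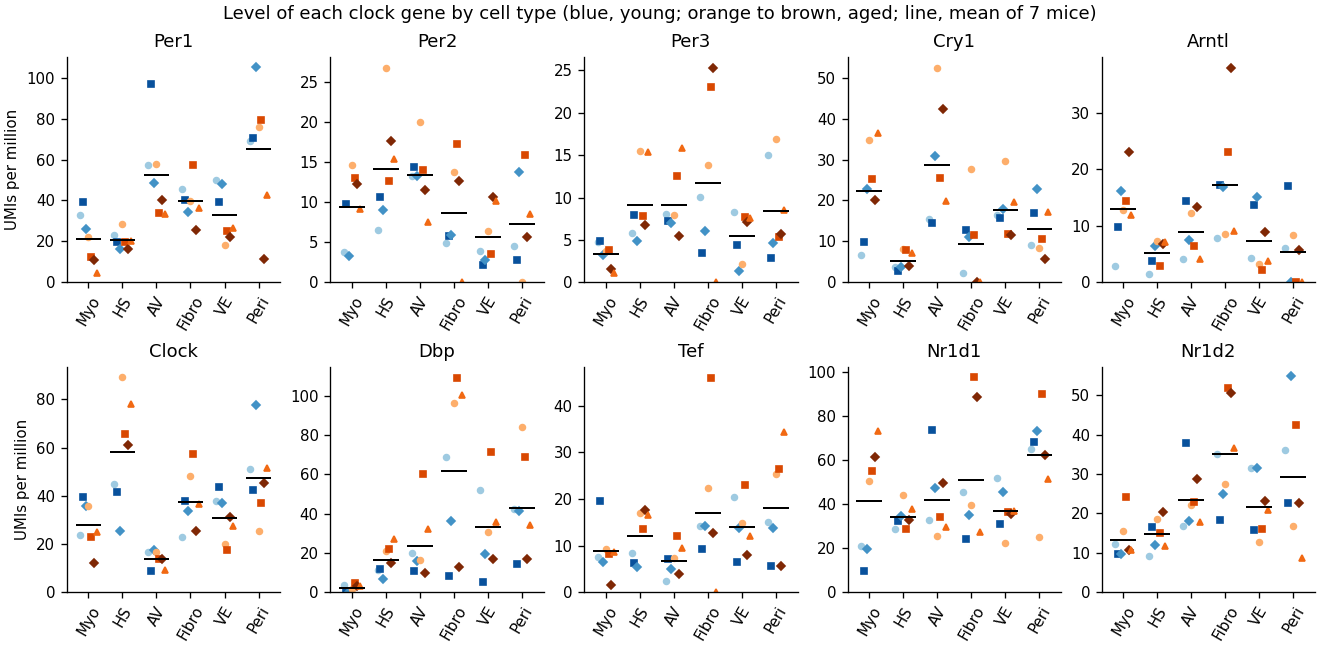
Level of each clock gene in CPM (linear axis, scaled for each gene) in the 6 cell types (Myo, myoepithelial; Fibro, fibroblast; VE, vascular endothelial; Peri, pericyte). Each point is 1 mouse and each line the mean of 7 mice. Clock stood highest in HS cells and lowest in AV cells, Cry1 highest in AV cells and lowest in HS cells, and Dbp was near 0 in myoepithelial cells.

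Whether all cell types of a mouse moved together was examined next. For Dbp they largely did. In fibroblasts Dbp was 68.8, 8.06 and 36.4 CPM in Young A, B and C and 96.5, 109, 12.7 and 101 in Aged A, B, C and D. Young B and Aged C were low, with 7 and 1 UMIs. In vascular endothelial cells Dbp was 52.0, 5.44 and 19.2 CPM in the young and 30.7, 71.2, 16.9 and 35.5 in the aged mice. Again Young B and Aged C were the lowest of their ages, and Young A and Aged B the highest. In pericytes it was 42.2, 14.2 and 41.2 CPM and 84.2, 68.9, 17.0 and 34.3, with Young B and Aged C lowest. AV cells had 20.2, 10.8 and 15.7 CPM and 16.6, 60.3, 9.54 and 32.1, with the same pair lowest. HS cells had 11.3, 11.7 and 6.54 CPM and 21.1, 21.9, 14.9 and 27.2. In HS cells Aged C was the lowest aged mouse, but Young C, not Young B, was the lowest young mouse. Myoepithelial Dbp was 3.78, 0 and 0 CPM and 1.84, 4.48, 3.08 and 3.42, on 0 to 13 UMIs a mouse.

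Over the 6 types, Aged C was the lowest aged mouse for Dbp in 5 and Aged B the highest in 4. Young A was the highest young mouse in 5 and Young B the lowest in 4. Mean Dbp over the 6 types was 33.0, 8.36 and 19.8 CPM in Young A, B and C and 41.9, 56.0, 12.3 and 38.9 in Aged A, B, C and D. The spread within each age was wide, and the ages overlapped. Young B had the lowest median depth of all mice (4758.5 UMIs per cell) and Aged C the highest (7109.5). The median mitochondrial share of a cell was 3.68% in Young B, against 3.18% and 3.61% in the other young mice, and 2.55% in Aged C, against 2.48% to 2.82% in the other aged mice. The part of depth in the Dbp pattern was not tested beyond thinning every cell to 2000 UMIs, after which the share of the spread that lay between mice was 25.2% in place of 27.6%.

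Arntl, the activator that peaks opposite to Dbp, had the reverse order of mice in the young, and Aged C was at the other end in the aged. Its mean over the 6 types was 4.43, 12.6 and 10.3 CPM in Young A, B and C and 8.79, 8.16, 16.0 and 6.01 in Aged A, B, C and D. Young A was the lowest young mouse in 5 of 6 types, and Aged C the highest aged mouse in 4. In vascular endothelial cells Arntl was 4.37, 13.6 and 15.1 CPM in the young and 3.18, 2.10, 8.91 and 3.81 in the aged mice, on 3 to 25 UMIs. In AV cells it was 4.04, 14.4 and 7.44 CPM and 12.3, 6.48, 13.4 and 4.03, on 7 to 98 UMIs. Fibroblasts had 7.86, 17.3 and 16.8 CPM and 8.62, 23.0, 38.0 and 9.14, with 1 to 5 UMIs in each aged mouse. Young A, high in Dbp, was low in Arntl in these 3 types, and Aged C, low in Dbp, was the highest aged mouse in each of them. HS cells had 1.46, 3.71 and 6.37 CPM and 7.32, 2.92, 6.79 and 7.10, and there Aged C did not stand apart from Aged A and Aged D.

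**Figure D2:**
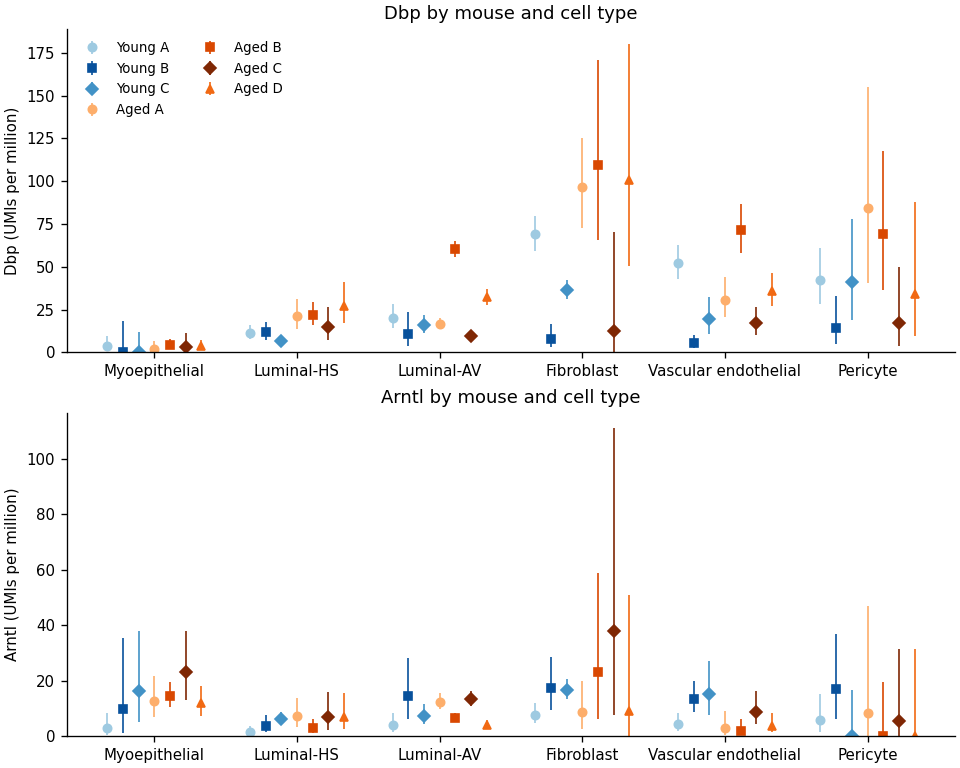
Dbp (top) and Arntl (bottom) in CPM for each mouse and cell type. Points are mice and bars the exact 95% Poisson interval, which covers counting error only. Young B and Aged C were low in Dbp in fibroblasts, vascular endothelial cells, pericytes and AV cells, and Aged C was the highest aged mouse for Arntl in fibroblasts, vascular endothelial cells and AV cells.

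The spread of each gene over 7 mice and 6 cell types was split into a part between types, a part between mice and the rest. The part between mice, taken from the mean of each mouse over the types, was 27.6% of the spread for Dbp, 24.1% for Arntl, 23.6% for Per1 and 22.1% for Tef. Over the 11888 genes compared the median was 11.8%. Such means also carry some counting error and differences of mice in single types, so this part need not be shared by all types. When types with as few as 3 cells a mouse were added, the shares were 10.5% for Dbp, 14.3% for Arntl and 11.6% for Per1. The other shares were 16.9% for Cry1, 16.6% for Per2, 13.6% for Nr1d1, 13.3% for Per3, 9.78% for Nr1d2 and 1.64% for Clock. Clock had the largest part between types (63.7%). Nr1d1 had the largest rest (68.5%), which holds counting error and differences of mice in single types.

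For Arntl and Dbp most of the mouse part lay within the ages. It was 24.1% of the spread for Arntl, above 97.0% of all genes, and 20.1% for Dbp, above 93.9% of all genes. Tef had 17.7% and Cry1 14.8%, against a median of 6.52%. For Per1 and Per2 the larger portion was between ages (14.4% and 11%). Each pair of mice of 1 age was also compared in each type, which gives 54 comparisons per gene. For Dbp 47 of 54 went the way most types of that pair went (87.0%, above 99.2% of all genes, median 66.7%). Cry1 had 41 of 54, Arntl 40 and Nr1d1 34. By these comparisons the types of a mouse moved together most for Dbp and to a lesser degree for Cry1 and Arntl. Per2, Clock and Nr1d1 lay below the median gene. By the mouse part of the spread, Per2 (16.6%) and Nr1d1 (13.6%) lay above the median of 11.8%, and Clock (1.64%) below it. A gene with a large rest, such as Nr1d1 (68.5%), gets a mouse part of some size even where its types move independently. Its place above the median therefore does not show that its types moved together. These shares are descriptions with no test, since the types of a mouse share its library.

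**Figure D3:**
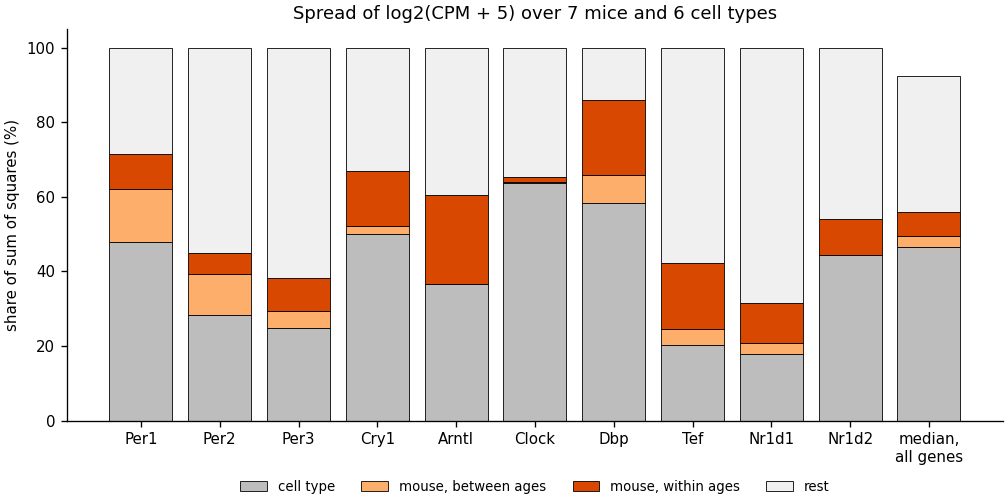
Share (%) of the sum of squares of log2(CPM + 5) over 7 mice and 6 cell types that lay between cell types, between mice of different ages, between mice of the same age, and in the rest. The last bar holds the medians of the 11888 genes, which need not add to 100. Dbp and Arntl had the largest parts between mice, 27.6% and 24.1%, and Clock the smallest, 1.64%.

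To see which genes followed Dbp from mouse to mouse, log2 values of 42 sums (7 mice, 6 types) were centred within each cell type and age, and each of 4811 genes with a mean of at least 20 CPM was correlated with Dbp. Sums of 1 mouse share a library, so these r are descriptions. The highest were Mlf2 (r = 0.73), Nedd8, a ubiquitin-like protein (0.69), Capzb, an actin capping protein (0.68), Atpif1, an inhibitor of ATP synthase (0.67), Spint2, a protease inhibitor (0.67), Cops7a, of the COP9 signalosome (0.67), Cacfd1 (0.66), Pld3 (0.66), Cyhr1 (0.66) and Uqcrc1, of respiratory complex III (0.65). None is a member of the clock lists. The lowest were Hsp90b1, an endoplasmic reticulum chaperone (r = -0.66), Ddx21, an RNA helicase of ribosome production (-0.66), Etv3 (-0.62), Zranb1 (-0.62) and Bach1 (-0.59). Mean Hsp90b1 over types was 221, 263 and 235 CPM in Young A, B and C and 178, 179, 265 and 186 in the aged mice, so Young B and Aged C were the highest of their ages.

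Of the other clock genes, Arntl had r = -0.60 with Dbp, which would be the 5th lowest value had its level reached 20 CPM. Tef (0.40) and Per1 (0.37) were the closest, at ranks 461 and 576 from the top. Per3 (0.20), Nr1d2 (0.14), Cry1 (-0.00198), Clock (-0.05), Nr1d1 (-0.06) and Per2 (-0.13) lay in the middle of the order. Such weak values are no finding. Over all cells Nr1d1 (3186 UMIs) and Clock (2232) had more counts than Dbp (2184) and Arntl (705). Mean Nr1d1 over the 6 types was 40.75, 39.86 and 42.46 CPM in Young A, B and C. In Aged A, B, C and D it was 34.54, 57.03, 55.0 and 42.68 CPM, so Aged C, the lowest aged mouse in Dbp, was not low in Nr1d1.

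Age differences were tested in each type on summed counts with the edgeR quasi-likelihood test, with p-values adjusted over all genes of that type. A gene was called at an adjusted p under 0.05 and at least 1.5-fold, and log2 fold changes are of aged against young and given ± SE. Values in these edgeR comparisons within a type are CPM scaled by TMM factors, which differ somewhat from the CPM above. Of the 60 gene and type pairs, 44 passed the filter on low counts. The other 16 were Per3, Dbp and Tef in myoepithelial cells, Per2, Per3, Cry1 and Tef in fibroblasts, Per2 in vascular endothelial cells and 8 genes in pericytes, where Per1 and Nr1d1 were tested. A gene can pass this filter through 1 age alone, as Cry1 and Per2 in myoepithelial cells did through the aged mice, where they were high. In aged mice 7 pairs were called higher and 2 lower, where 7.04% and 6.35% of all genes of the 6 types together were. Of the 44, 16 had an unadjusted p under 0.05. No share over all genes is given for this count or for the like counts below. The same holds for genes whose ages did not overlap within a type. Ages could also part without a call, as for Cry1 in HS cells.

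In myoepithelial cells 7 clock genes were tested, 3 rose in aged mice and 1 fell, where 12.8% of all genes were called higher and 14.8% lower. Nr1d1 was 20.9, 9.17 and 19.4 TMM-scaled CPM in Young A, B and C and 49.6, 58.3, 64.0 and 83.7 in Aged A, B, C and D. The ages did not overlap (log2 fold change 1.79 ± 0.31, edgeR adjusted p = 0.00059), and the call held in each of 15 alternatives, among them leaving out any 1 mouse. The Young B and Young C values rest on 2 and 6 UMIs. Thra, which overlaps the end of Nr1d1, was not called there (log2 -0.15 ± 0.39, SE). Cry1 was 6.65, 9.17 and 22.6 in the young and 34.3, 26.6, 20.8 and 41.8 in the aged mice, so that Young C overlapped Aged C (log2 fold change 1.54 ± 0.43, edgeR adjusted p = 0.0146; not called without Young A). Per2 was 3.80, 9.17 and 3.23 and 14.4, 13.8, 12.8 and 10.5, with no overlap, on 1 to 4 UMIs in each young mouse (log2 fold change 1.50 ± 0.49, edgeR adjusted p = 0.0316; not called without Young A, without Young C, with DESeq2 or by library totals, and below the filter without Aged A or Aged B). Young values alone fell short of the filter for Cry1 and Per2, which passed it through the aged mice, where they were high.

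Per1 went the other way in myoepithelial cells. It was 33.2, 36.7 and 25.8 in the young and 21.6, 13.1, 11.2 and 5.23 in the aged mice, with no overlap (log2 fold change -1.33 ± 0.40, edgeR adjusted p = 0.0194; not called without Young A). The other 3 genes were not called. Arntl gave a log2 fold change of 1.19 ± 0.53 (edgeR adjusted p = 0.11), Nr1d2 0.62 ± 0.43 (edgeR adjusted p = 0.30) and Clock -0.18 ± 0.34 (edgeR adjusted p = 0.74). Arntl was called when Young C was left out. Per1 and Per2 thus moved in opposite directions in the same cells.

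In HS cells all 10 genes were tested, and 4 rose in aged mice where 3.93% of all genes were called higher; 0 fell, where 2.33% were called lower. Tef was 7.68, 6.33 and 5.31 TMM-scaled CPM in Young A, B and C and 15.9, 15.2, 18.0 and 18.6 in Aged A, B, C and D (log2 fold change 1.39 ± 0.25, edgeR adjusted p = 0.0123; not called without Young C). Clock was 41.1, 41.1 and 25.1 and 83.5, 73.2, 62.2 and 87.6 (log2 fold change 1.13 ± 0.21, edgeR adjusted p = 0.0138; not called without Young C). Every aged mouse was above every young mouse for both genes. Dbp was 10.3, 11.6 and 6.44 and 19.7, 24.4, 15.2 and 30.5 (log2 fold change 1.31 ± 0.30, edgeR adjusted p = 0.0289), and Per2 6.01, 10.6 and 8.85 and 25.1, 14.1, 18.0 and 17.3 (log2 fold change 1.14 ± 0.29, edgeR adjusted p = 0.0431). These groups did not overlap either. The Dbp call was lost without any 1 of the young mice, Aged B or Aged D, and the Per2 call without any 1 of the mice other than Aged B or by library totals. The other 6 genes had log2 fold changes above 0 and were not called: Cry1 1.13 ± 0.34 (edgeR adjusted p = 0.0742), Per3 1.01 ± 0.35 (edgeR adjusted p = 0.11), Nr1d2 0.52 ± 0.28 (edgeR adjusted p = 0.28), Arntl 0.48 ± 0.52 (edgeR adjusted p = 0.62), Nr1d1 0.25 ± 0.18 (edgeR adjusted p = 0.44) and Per1 0.25 ± 0.22 (edgeR adjusted p = 0.54). The median over all genes in HS cells was a log2 fold change of 0.02.

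In AV cells, the type with the most cells, 0 of 10 tested genes were called by edgeR, where 2.9% of all genes were called higher and 3.26% lower. An unadjusted p under 0.05 was found for 2 of them, Cry1 (0.96 ± 0.39, edgeR adjusted p = 0.18) and Tef (1.18 ± 0.49, edgeR adjusted p = 0.18). Dbp was 17.6, 9.91 and 14.3 TMM-scaled CPM in the young and 17.7, 61.6, 10.6 and 36.8 in the aged mice, with Aged C within the young range and Aged A at its upper end (log2 fold change 1.12 ± 0.56, edgeR adjusted p = 0.26). Its spread between aged mice was larger than the difference of the ages.

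In vascular endothelial cells 9 genes were tested. None was called higher, where 14.7% of all genes were, and Per1 fell, where 12% of all genes were called lower. Per1 was 42.5, 35.02 and 43.5 TMM-scaled CPM in Young A, B and C and 20.5, 26.7, 24.8 and 31.7 in the aged mice, with no overlap (log2 fold change -0.60 ± 0.20, edgeR adjusted p = 0.0387). The call was lost without Young A, Young C, Aged A, Aged B or Aged C, with DESeq2, with RLE factors and with no filter on low counts. Dbp gave 0.91 ± 0.54 (edgeR adjusted p = 0.23), Arntl -0.85 ± 0.54 (edgeR adjusted p = 0.26) and Clock -0.37 ± 0.23 (edgeR adjusted p = 0.26). Without Young A, whose Dbp was the highest of the young, Dbp was called higher (log2 fold change 2.25, edgeR adjusted p = 0.016), and Per2, below the filter with all mice, was called higher without Young A or without Young C. By library totals Clock was called lower (log2 fold change -0.73, edgeR adjusted p = 0.0198). In this type TMM scaling moved the median gene to a log2 change of -0.05, against -0.41 by library totals, so fold changes in this type are relative to that shift.

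In fibroblasts 0 of 6 tested genes were called, where 2.07% of all genes were called higher and 1.11% lower, and 2 had an unadjusted p under 0.05. These were Dbp (1.25 ± 0.51, edgeR adjusted p = 0.19) and Nr1d1 (0.79 ± 0.36, edgeR adjusted p = 0.24). The aged Dbp values were 108, 115, 12.9 and 111 TMM-scaled CPM, with Aged C far below the others. In pericytes 0 of 2 tested genes were called, where 7.19% of all genes were called higher and 4.61% lower, and 0 had an unadjusted p under 0.05. Per1 gave -0.43 ± 0.41 (edgeR adjusted p = 0.54) and Nr1d1 0.01 ± 0.32 (edgeR adjusted p = 1.00).

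**Figure D4:**
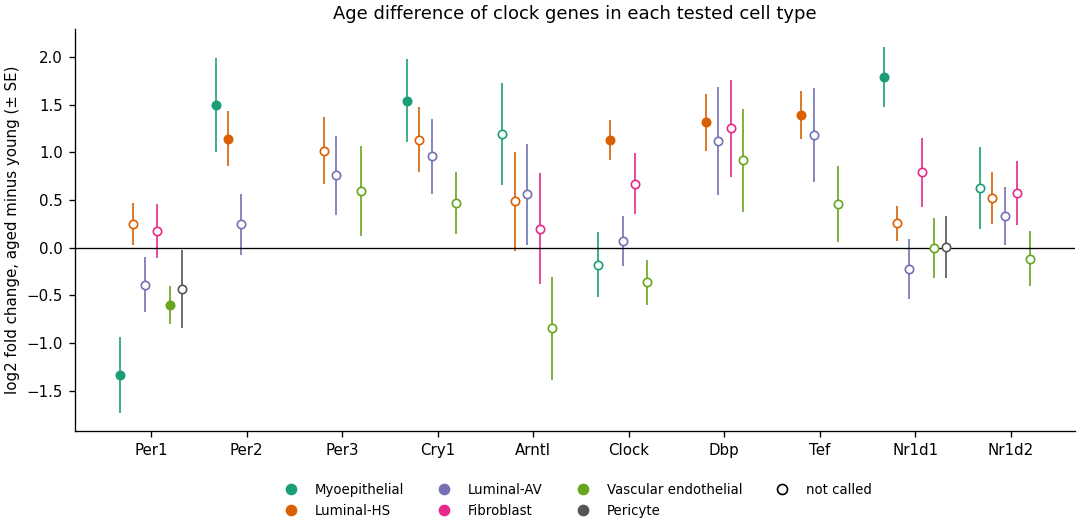
Log2 fold change of aged against young mice (± SE, edgeR) for the 44 tested pairs of clock gene and cell type, with filled points for called pairs. The 7 pairs called higher lay in myoepithelial and HS cells, and the 2 called lower were Per1 in myoepithelial and vascular endothelial cells.

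Averaged over the 6 cell types of each mouse, 2 of the 10 genes did not overlap between the ages. These means are of CPM not scaled by TMM factors. By library totals the median gene had a log2 change from -0.10 in myoepithelial cells to -0.41 in vascular endothelial cells, so the differences below include such a shift. Mean Per1 was 46.4, 51.1 and 46.4 CPM in Young A, B and C and 40.3, 38.0, 21.0 and 27.3 in the aged mice, and every aged mouse was lower. On the log2 scale the difference was -0.58 (exact two-sided permutation p = 0.0571, adjusted p = 0.29 over the 10 genes). All aged mice lay below all young mice for 24.7% of the 11888 genes. Mean Per2 was 6.15, 7.60 and 7.96 CPM in the young and 13.6, 12.7, 11.8 and 8.47 in the aged mice, and every aged mouse was higher (log2 difference 0.41, exact permutation p = 0.0571, adjusted p = 0.29). All aged mice lay above all young mice for 5.48% of genes. With 3 mice against 4 the smallest possible p is 0.029, and neither gene passed the test. The other genes overlapped, with log2 differences from -0.06 for Clock to 0.67 for Dbp (exact permutation p = 0.23).

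Whether the age difference itself differed between cell types was tested per mouse. For epithelium against stroma, 0 of 10 genes passed an adjusted p under 0.05 in the exact permutation test. Cry1 alone had an unadjusted p under 0.05 (difference of log2 differences 0.93, exact permutation p = 0.0286, adjusted p = 0.29), as did 8.3% of all genes. Of the 150 combinations of a gene with 2 cell types, 18 reached the smallest possible exact p of 0.029 and none passed after adjustment (smallest adjusted p = 0.24). With that floor, adjustment over 150 combinations could hardly be passed. No share over all genes is given for this count or for the count with TMM factors below. Of the 18, 4 set Nr1d1 in myoepithelial cells against other types, with the widest gap against AV cells (log2 1.61 against -0.47). A further 5 set Clock in 1 type against another, among them HS against vascular endothelial cells (log2 0.91 against -0.64). These values are unscaled CPM. With the TMM factors of each type, 13 of the 150 reached that p and 0 passed after adjustment. Clock then gave 1.02 in HS and -0.34 in vascular endothelial cells (exact permutation p = 0.0571), where its ages overlapped.

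A list of 17 other genes of the clock pathway was drawn up with earlier results of these data known. They are 8 loop factors (Cry2, Npas2, Rora, Rorb, Bhlhe40, Bhlhe41, Nfil3, Hlf), 5 turnover factors and partners (Csnk1d, Csnk1e, Fbxl21, Btrc, Timeless) and 4 rhythmic targets (Ciart, Usp2, Wee1, Nampt). Of their 102 pairs with a cell type 64 passed the filter, 5 were called higher, 5 lower, and 22 had an unadjusted p under 0.05. Over all genes of the 6 types together 7.04% were called higher and 6.35% lower. By list, the loop factors had 4 higher and 1 lower of 30 pairs, the turnover factors 1 and 1 of 17, and the targets 0 and 3 of 17.

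In vascular endothelial cells 3 of the 6 loop factors tested rose in aged mice, where 14.7% of all genes did. Hlf, the third bZIP activator of D-boxes beside DBP and TEF, was 0.412, 0.486 and 3.72 TMM-scaled CPM in Young A, B and C and 15.7, 15.6, 3.97 and 11.3 in the aged mice, on 1 to 21 UMIs (log2 fold change 3.48 ± 0.66, edgeR adjusted p = 0.00155). Nfil3, a D-box repressor, was 32.2, 25.3 and 43.5 and 68.7, 55.0, 74.4 and 81.5 (log2 fold change 1.10 ± 0.22, edgeR adjusted p = 0.00188). Bhlhe40 (DEC1), an E-box repressor, was 127, 176 and 145 and 293, 257, 200.3 and 253 (log2 fold change 0.75 ± 0.17, edgeR adjusted p = 0.00457; not called by library totals). All aged mice were above all young mice for each of the 3, though Hlf in Aged C was close to Young C. Hlf passed the filter on low counts only through aged mice, where it was high. It was tested in 12 of 15 alternatives. Timeless, a replication-fork protein related to the fly clock gene, fell from 24.7 ± 3.15 to 10.4 ± 3.26 (SD, n = 3 and 4; log2 fold change -1.27 ± 0.26, edgeR adjusted p = 0.00252).

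Elsewhere the calls were scattered. In fibroblasts Bhlhe41 (DEC2) rose, from 26.0, 14.2 and 21.8 TMM-scaled CPM in the young to 121, 115, 25.8 and 192 in the aged mice, with Aged C just within the young range (log2 fold change 2.44 ± 0.36, edgeR adjusted p = 0.00291). Bhlhe41 passed the filter there only through the aged mice, where it was high. Wee1, a mitotic kinase under E-box control, fell there (log2 fold change -2.51 ± 0.59, edgeR adjusted p = 0.0361). It was 41.7, 36.7 and 25.8 in the young and 3.84, 0, 12.9 and 20.2 in the aged mice, on 0 to 2 UMIs in each aged mouse. Wee1 passed the filter on low counts through the young mice, where it was high, and was not called without Aged A, Aged B or Aged C. In myoepithelial cells Csnk1e, a kinase that marks PER proteins for turnover, rose from 31.2 ± 5.11 to 59.0 ± 10.6 (log2 fold change 0.81 ± 0.26, edgeR adjusted p = 0.0290; not called without any 1 of the young mice, Aged A or Aged C, with DESeq2 or by library totals). Nfil3 fell there, from 77.4 ± 28.1 to 40.0 ± 7.86 (log2 fold change -0.95 ± 0.27, edgeR adjusted p = 0.0146; not called without Young C), against its rise in vascular endothelial cells. A test of that contrast was not made.

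Usp2, a deubiquitinase with a strong rhythm in many tissues, fell in both myoepithelial and AV cells. It was 36.1, 22.9 and 35.5 and 17.1, 9.10, 12.8 and 9.15 TMM-scaled CPM in myoepithelial cells (log2 fold change -1.52 ± 0.34, edgeR adjusted p = 0.00330; not called without Young A). In AV cells it was 59.5, 62.8 and 104 and 45.1, 24.96, 20.4 and 20.1 (log2 fold change -1.47 ± 0.32, edgeR adjusted p = 0.0250; not called without Young B, Young C, Aged C or Aged D). No aged mouse reached a young one in either type.

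Since Per1 also responds to glucocorticoids and immediate-early signals, genes of both responses are given beside it. Of 4 glucocorticoid-responsive genes (Tsc22d3, Fkbp5, Sgk1, Zbtb16), 2 of 21 tested pairs were called higher and 0 lower (7.04% and 6.35% of all genes), with 9 at an unadjusted p under 0.05. In vascular endothelial cells, where Per1 fell, Tsc22d3 (GILZ) rose (log2 fold change 0.91 ± 0.19, edgeR adjusted p = 0.00327), while Fkbp5 gave 0.63 ± 0.30 (edgeR adjusted p = 0.14), Sgk1 -0.54 ± 0.16 (edgeR adjusted p = 0.0253), short of 1.5-fold, and Zbtb16 -0.41 ± 0.22 (edgeR adjusted p = 0.18). In myoepithelial cells, where Per1 also fell, Tsc22d3 gave -0.72 ± 0.37 (edgeR adjusted p = 0.16) and Sgk1 0.03 ± 0.26 (edgeR adjusted p = 0.96). The summed level of the 4 genes in vascular endothelial cells was 938 to 982 TMM-scaled CPM in young and 671 to 979 in aged mice, which overlapped, while unscaled values (1087 to 1105 and 603 to 860 CPM) did not. In HS cells Sgk1, which was 154, 234 and 179 TMM-scaled CPM in the young and 393, 246, 476 and 439 in the aged mice, rose (log2 fold change 1.04 ± 0.24, edgeR adjusted p = 0.0312).

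Of 10 immediate-early and heat-shock genes, 9 of 60 tested pairs were called higher and 5 lower, against 7.04% and 6.35% of all genes. Fosb fell in myoepithelial cells, where its ages overlapped (log2 fold change -1.29 ± 0.29, edgeR adjusted p = 0.00377), and in vascular endothelial cells (log2 fold change -1.53 ± 0.19, edgeR adjusted p = 6.1e-05), the types in which Per1 fell, and also in fibroblasts (log2 fold change -1.29 ± 0.27, edgeR adjusted p = 0.0216) and pericytes (log2 fold change -1.32 ± 0.24, edgeR adjusted p = 0.00434), in which Per1 was not called. Egr1 fell in vascular endothelial cells (log2 fold change -1.13 ± 0.16, edgeR adjusted p = 0.00021). Atf3 rose in vascular endothelial cells (log2 fold change 0.77 ± 0.13, edgeR adjusted p = 0.00081), as it did in pericytes, and Ier2 in myoepithelial cells (log2 fold change 0.84 ± 0.23, edgeR adjusted p = 0.0127). The heat-shock gene Hspa1a rose in fibroblasts (log2 fold change 3.40 ± 0.62, edgeR adjusted p = 0.00896) and pericytes (log2 fold change 1.65 ± 0.35, edgeR adjusted p = 0.00848). The summed level of the list was 12835 to 15776 TMM-scaled CPM in young and 12268 to 14190 in aged vascular endothelial cells, and 6229 to 9410 against 6877 to 9712 in myoepithelial cells, so the ages overlapped in both. Unscaled values in vascular endothelial cells, 14210 to 18579 against 10610 to 13340 CPM, did not overlap. The part of either response in the Per1 differences was not tested.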

How the data were processed

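Per the labels and the study's methods, the authors dissociated mammary glands of 7 mice, made 1 10x 3′ version 2 library per mouse, ran Cell Ranger 2.0 on mm10 and filtered cells. They deposited unnormalized UMI counts for every cell, and a table that names the mouse and the cell type of each cell, which served here as other, non-numeric data. Doublets were not called again here.

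The members and lists were chosen with earlier results of these data known. For each mouse, counts were added up within each type, for types with at least 10 cells in every mouse. Levels are CPM, compared as log2(CPM + 5) by exact sign-flip and permutation tests, with Benjamini-Hochberg adjustment. Ages were compared with edgeR 4.0.16 (quasi-likelihood test, TMM factors, filterByExpr, R 4.3.3), with DESeq2 1.42.0 as an alternative. Genes were named as members, as listed pathway genes that were called, as listed glucocorticoid and immediate-early genes beside Per1, and as the 10 highest and 5 lowest correlations with Dbp. Positions are from GENCODE vM21. A further 2 genes of the pathway, outside the lists in the text, are not reported here. Scripts were tested on simulated data. Replicates are mice. Intervals and limits cover counting error only.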

Additional observations from a re-analysis of the deposited data

Results flagged for a closer look

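In 5 of the 70 groups of 4 aged mice, 1 mouse lay far from the other 3 by Dixon's test at the 95% level, which chance does in about 1 group of 20. Dbp in fibroblasts was 12.7 CPM in Aged C, on 1 UMI from 15 cells, against 96.5 to 109 CPM in the other aged mice. Tef in myoepithelial cells was 1.54 CPM in Aged C, of a sum of 650036 UMIs and so at the counting floor, against 8.27 to 9.19 CPM. Nr1d1 in vascular endothelial cells was 22.3 CPM in Aged A, on 21 UMIs, against 35.7 to 36.8 CPM. Per3 there was 2.12 CPM in Aged A, on 2 UMIs, against 7.13 to 7.68 CPM. Arntl in HS cells was 2.92 CPM in Aged B, on 6 UMIs, against 6.79 to 7.32 CPM.

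The age difference of Clock differed between HS and vascular endothelial cells by 1.55 on the log2 scale. In unscaled CPM every aged mouse was above every young mouse in HS cells (0.91) and below in vascular endothelial cells (-0.64). The exact permutation p was 0.029, the smallest that 3 against 4 mice allow, and the adjusted p over 150 combinations was 0.24. With the TMM factors of each type, an alternative chosen after seeing the data, the difference was 1.36 (exact permutation p = 0.0571, adjusted p = 0.39), and the ages overlapped in vascular endothelial cells.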

How the results depend on the processing

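No called difference changed direction under any alternative run. Of the 40 to 44 clock gene pairs tested in an alternative, 0 to 4 that were not called changed sign, each with a log2 fold change of at most 0.24 in either direction, and by library totals 3 did. The mean age differences over types of Arntl (log2 0.01), Clock (-0.06), Nr1d2 (0.02) and Per3 (0.25), none of which passed a test, also changed sign under some alternatives, Per3 with thinned cells (-0.07). The 7 clock gene pairs called higher by edgeR were 5 to 10 under other tools, scalings and filters, and 4 to 6 when 1 mouse was left out, with 4 without Young C. These counts include calls gained, which are named below. The 2 pairs called lower were 1 with DESeq2, 1 with RLE factors and 1 with no filter on low counts, and 0 to 2 when 1 mouse was left out, with 0 without Young A. Replicate letters are shared by the ages but name different animals, and same-lettered mice did not deviate together (median r -0.09 for A, -0.07 for B and 0.01 for C). The labels do not say whether same-lettered mice shared a batch, and these r cannot decide it. The main test used no pairing. With the replicate block, which drops Aged D from the contrast, 2 pairs were called higher and 0 lower. The other pathway genes had 5 pairs called higher, against 3 by library totals, 9 with no filter, and 4 whichever mouse was left out. Their 5 pairs called lower were 3 or 4 when 1 mouse was left out, with 3 without Young A, Young B or Young C.

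The 2 genes whose means over types did not overlap between ages were 1 with 1 CPM added, 0 with types of at least 3 cells, and 2 to 4 when 1 mouse was left out, with 4 without Aged C. The gene higher in the epithelium in every mouse was lost (0) with types of at least 3 cells and with cells thinned to 2000 UMIs. The gene higher in the stroma was lost (0) with types of at least 3 cells, and there were 2 with thinned cells and 1 or 2 when 1 mouse was left out, with 2 without Aged A and without Aged C. In every alternative run 0 age differences differed between epithelium and stroma after adjustment. Calls gained were, without Young A, Dbp (log2 2.25) and Per2 (1.99) in vascular endothelial cells. Without Young C they were Arntl in myoepithelial (1.97) and Per2 in vascular endothelial cells (1.68). With no filter they were Dbp in fibroblasts (1.04) and Dbp (0.91) and Per2 (1.67) in vascular endothelial cells, and by library totals Clock lower in vascular endothelial cells (-0.73). The cause of these changes was not tested. By library totals the median gene moved to a log2 change of -0.25 in AV cells, -0.17 in pericytes, -0.11 in fibroblasts and -0.10 in HS and myoepithelial cells, against at most 0.02 with TMM. Depth limits Per3, Arntl and Tef most, with 662 to 812 UMIs each in all cells, and aged fibroblasts and pericytes.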

Other observations

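Clock genes were also counted in small populations with at least 10 cells in some mice, as values with no test. In the macrophages named Ma, compared with those named Mb, the means over the 3 young mice were higher for Per1, Nr1d1 and Clock. Per1 was 87.3 ± 19.6 CPM (SD, n = 3) in Ma and 11.9 ± 12.6 in Mb, on 53 and 14 UMIs. Nr1d1 was 61.3 ± 16.8 CPM in Ma and 15.5 ± 9.17 in Mb, on 39 and 8 UMIs. Clock was 50.9 ± 32.4 CPM in Ma and 15.0 ± 5.47 in Mb, on 32 and 13 UMIs.

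Dendritic cells of 4 mice held 7.27 ± 5.76 CPM of Nr1d1 on 8 UMIs, while Per1 was 46.7 ± 19.6 CPM there on 50 UMIs. Per3 was at 0 UMIs in 219 dendritic cells. In the HS-AV population of the 3 young mice Nr1d1 was 49.2 ± 5.46 CPM and Dbp 3.12 ± 4.28 CPM, on 68 and 6 UMIs.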
